A study of Mus musculus with 16 samples.

Results

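The genes described here carry glucose sensing in the β cell: Slc2a2, G6pc2, Abcc8, Kcnj11, Trpm5 and Pcx. The 6 genes were chosen by symbol for their steps in this path, from glucose entry to closure of the KATP channel, out of 25105 genes listed, and each had a value in all 16 libraries. The RNA came from islets of Grp78 flox/flox mice, whose Grp78 alleles (listed as Hspa5) can be cut by Cre recombinase. The islets were dispersed into single cells and transduced with adenovirus, which can enter any islet cell type, so the cultures were mixed and the RNA was a bulk average. The 4 groups were Ad-LacZ, with a LacZ control virus, and Ad-Cre, with a virus expressing Cre, each either with the DMSO vehicle alone or with JNK-IN-8, an inhibitor of all JNK kinases present from the start (+ JNK Inh). All cultures were kept for 72 hours in 15 mM glucose. Each of 4 islet preparations (F1, M1, M2 and F2) gave 1 library per group. The donors were adult mice of both sexes and, by the study's methods, of a wide range of ages, with no age given for a single preparation.

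In a β cell, glucose enters through the transporter GLUT2 (Slc2a2), is phosphorylated and can be dephosphorylated again by the islet glucose-6-phosphatase subunit G6PC2, a futile cycle that sets how much glucose is needed to trigger secretion. Pyruvate carboxylase (Pcx) carries pyruvate into the mitochondrial cycle as oxaloacetate. The ATP made from glucose closes the KATP channel, built of the pore KIR6.2 (Kcnj11) and the sulfonylurea receptor SUR1 (Abcc8), the membrane depolarizes, with a contribution from calcium-activated cation channels such as TRPM5, and insulin is released.

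The promoters of the 3 genes on which the results turn are printed first, because their letters can be read beside the levels. They are RefSeq windows on GRCm38.p6, 250 bases before to 50 bases after an annotated start, written on the strand of the gene. RefSeq windows were found for 4 of the 6 genes (Slc2a2, G6pc2, Trpm5 and Pcx), and Abcc8 and Kcnj11 are named only. G6pc2 and Pcx each had 2 annotated starts. For G6pc2, the start printed is the one whose window holds CAGATG, so the presence of CAGATG in it was fixed by this choice. The other G6pc2 window holds the first base of the annotated gene (69211073), while the printed window lies inside the gene. Capitals mark CAGATG (an E-box of the kind bound by NEUROD1), TGCTGA (a part of the MARE, the element bound by MAF factors) and TAAT (a homeodomain core), on either strand, so that TCAGCA is TGCTGA and ATTA is TAAT read on the other strand.
Slc2a2, chr3:28697653-28697952, + strand: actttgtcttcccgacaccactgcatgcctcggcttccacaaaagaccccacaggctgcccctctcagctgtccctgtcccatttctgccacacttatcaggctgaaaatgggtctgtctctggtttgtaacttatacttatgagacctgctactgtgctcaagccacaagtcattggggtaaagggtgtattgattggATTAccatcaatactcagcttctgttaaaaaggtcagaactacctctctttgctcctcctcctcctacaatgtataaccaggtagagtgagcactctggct
G6pc2, chr2:69219699-69219998, + strand: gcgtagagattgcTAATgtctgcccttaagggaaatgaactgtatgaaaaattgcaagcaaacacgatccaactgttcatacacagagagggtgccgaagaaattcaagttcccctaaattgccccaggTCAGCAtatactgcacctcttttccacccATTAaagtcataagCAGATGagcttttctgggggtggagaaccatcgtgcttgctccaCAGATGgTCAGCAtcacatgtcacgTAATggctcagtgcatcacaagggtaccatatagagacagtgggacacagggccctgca
Trpm5, chr7:143094593-143094892, - strand: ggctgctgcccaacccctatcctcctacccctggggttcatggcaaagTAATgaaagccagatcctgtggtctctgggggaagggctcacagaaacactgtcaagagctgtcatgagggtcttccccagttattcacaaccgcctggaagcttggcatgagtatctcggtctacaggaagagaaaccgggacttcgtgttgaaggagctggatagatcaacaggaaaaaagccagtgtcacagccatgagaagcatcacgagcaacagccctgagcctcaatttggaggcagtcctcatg
In the G6pc2 window, CAGATG stood 78 and 34 bases before the start, TGCTGA 121 and 27 bases before it, and TAAT 237, 92 and 9 bases before it, with no overlap between motifs. The other G6pc2 window, chr2:69210823-69211122, held 1 TAAT, 123 bases before its start, and neither of the other motifs. TAAT was found 51 bases before the start of Slc2a2 and 202 bases before that of Trpm5. Of all 32851 promoter windows of this length, 17.2% held CAGATG, 19.5% TGCTGA and 58% TAAT on either strand. Among the 6 windows of these genes, CAGATG and TGCTGA each occurred in 1 and TAAT in 5. Stress motifs were also searched. The ER stress element (CCAAT and CCACG set 9 bases apart), TGACGT (a CRE core) and TGATGNAA (an amino acid response element) were found in 0 of the 6 windows, and in 0.119%, 7.51% and 3.97% of all windows. These matches describe letters only and say nothing of which factor is bound.

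Values were deposited as RPKM, a read count scaled to gene length and to library depth, which can be compared between genes. Depth, estimated from what a single read is worth in RPKM, was 15.7 to 23.0 M (mega) reads in Ad-LacZ, 14.3 to 23.7 M in Ad-Cre, 21.1 to 25.4 M in Ad-LacZ + JNK Inh and 7.7 to 20.7 M in Ad-Cre + JNK Inh, where preparation F2 was the shallowest library. The column name of that library also carries another prefix and lane code than those of the other 15, and the labels do not say what these mark. Values are given with and without that library where a call rests on it. The targeted gene went against its label: Hspa5 was at 438 ± 49.0 RPKM (SD, n = 4) in the libraries labelled Ad-LacZ and at 1264 ± 231 RPKM (SD, n = 4) in those labelled Ad-Cre, with no overlap. RPKM covers the whole gene, so it does not separate the floxed exons from the rest. The study checked knockdown by qPCR on parallel RNA of the sequenced cultures, which is not analysed here, and an exchange of labels was not tested. Each direction below is that of the libraries labelled Ad-Cre. β cell markers were present (11 of 12 symbols were listed, each with a mean above 1 RPKM in all 4 groups), and the summed level of 10 acinar cell markers was 1.82 to 10.9 RPKM, with Cela2a and Prss2 at 0 in all Ad-LacZ and Ad-Cre libraries. In bulk RNA of such cultures, fewer β cells and less of a transcript per β cell cannot be told apart. The 4 comparisons share groups of libraries, so their values for a gene are given side by side.

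In the control cultures G6pc2 was by far the most abundant of the 6 genes. Its level, at 790 ± 163 RPKM (SD, n = 4), ranked 16 among 25105 genes by its mean in Ad-LacZ. Below it came Abcc8 at 143 ± 28.5 RPKM (rank 177) and Slc2a2 at 102 ± 30.8 RPKM (rank 303), whose libraries overlapped each other, so that their order is within the spread. Pcx at 36.9 ± 8.92 RPKM (rank 1161) and Kcnj11 at 30.8 ± 3.21 RPKM (rank 1480) overlapped as well. Trpm5 was the lowest, at 5.40 ± 1.19 RPKM (rank 6959). The order of the means was the same in each of the 4 groups, with Pcx at 26.1 ± 9.19 and Kcnj11 at 25.1 ± 4.18 RPKM in Ad-Cre as its closest neighbours. The plot of levels shows where the groups separate.

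**Figure D1:**
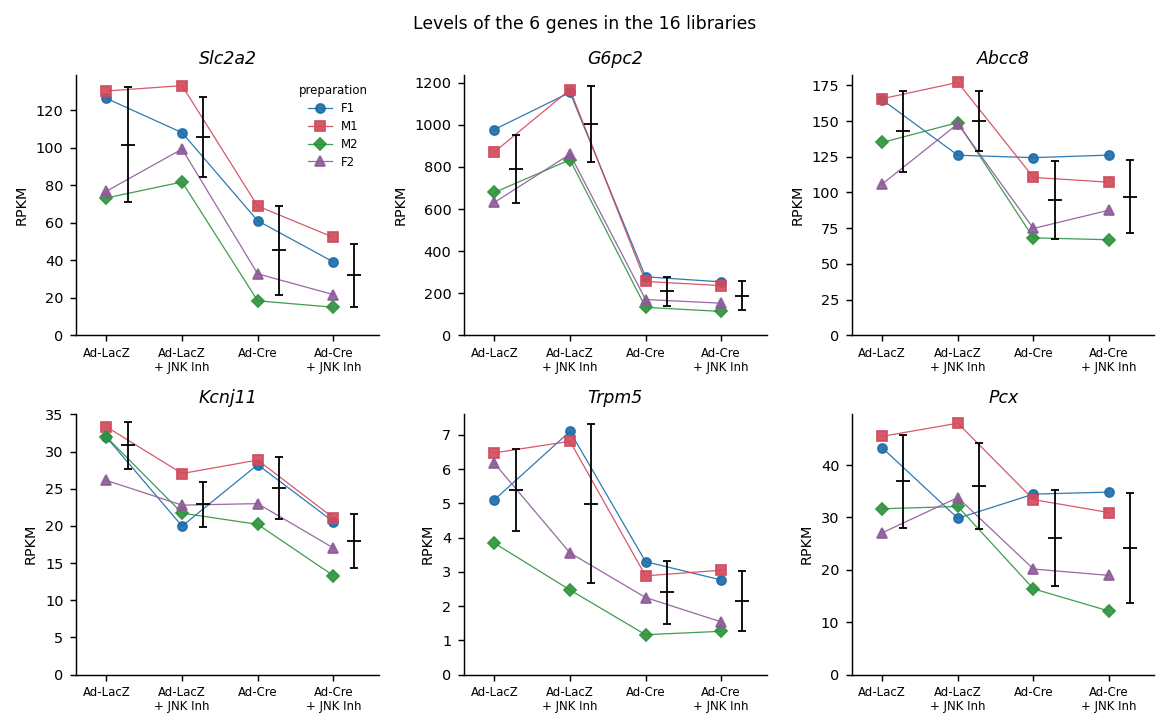
RPKM of each of the 6 genes (vertical axis, linear, from 0) in the 4 groups (horizontal axis), with 1 point per library, lines joining the libraries of 1 preparation, and the mean ± SD (n = 4) as a black bar beside the points. G6pc2 sits at 632 to 978 RPKM in Ad-LacZ and at 133 to 278 RPKM in Ad-Cre, while the Kcnj11 groups overlap.

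Slc2a2 had a lower fitted level in the Ad-Cre libraries, and whether it was called depended on the pairing of preparations and on the normalization. It encodes the main glucose transporter of mouse β cells (chromosome 3, 28697903 to 28731359, + strand, GRCm38). In preparations F1, M1, M2 and F2 it was at 126, 130, 73.2 and 76.8 RPKM with Ad-LacZ. With Ad-Cre the same preparations were at 61.0, 68.9, 18.3 and 32.7 RPKM. The groups did not overlap in RPKM, although the highest Ad-Cre library (M1) came close to the lowest Ad-LacZ library (M2), and after scaling of the libraries they overlapped. The 4 Ad-Cre libraries held 48.3%, 52.9%, 25.1% and 42.6% of the RPKM of their own Ad-LacZ library. The log2 fold change was -1.28 (SE 0.46), which did not pass the test without pairing (limma, Benjamini-Hochberg adjusted p = 0.0906; exact two-sided permutation p = 0.0857). It passed with the preparation as a block (adjusted p = 0.00222), and also with quantile normalization (adjusted p = 0.0393), and the adjusted p ranged from 0.00222 to 0.253 over 13 alternatives.

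With the inhibitor in both arms, Slc2a2 was at 108, 133, 81.7 and 99.3 RPKM in Ad-LacZ + JNK Inh and at 39.1, 52.2, 14.9 and 21.7 RPKM in Ad-Cre + JNK Inh. All Ad-Cre libraries were below all Ad-LacZ libraries, before and after scaling. Here Slc2a2 fell by 1.69 on the log2 scale (SE 0.40, limma adjusted p = 0.0177; exact permutation p = 0.0286, the smallest that 4 against 4 libraries allow). The call was lost without preparation F1 (adjusted p = 0.0625), without F2 (0.107) and without the shallow Ad-Cre + JNK Inh library of F2 (0.0546), each in limma, while the log2 fold change stayed between -1.97 and -1.53 over 14 alternatives. The inhibitor by itself gave log2 fold changes of -0.32 (95% interval -1.55 to 0.91) in Ad-Cre and 0.10 (95% interval -0.56 to 0.75) in Ad-LacZ, neither of which passed the test.

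G6pc2 showed the largest difference of the 6 genes in both comparisons of virus. It encodes the catalytic subunit that turns glucose-6-phosphate back to glucose in islets (chromosome 2, 69211073 to 69227841, + strand). Its levels with Ad-LacZ were 978, 871, 679 and 632 RPKM in F1, M1, M2 and F2. Those with Ad-Cre were 278, 256, 133 and 170 RPKM. The lowest Ad-LacZ library was more than 2-fold above the highest Ad-Cre library, and each Ad-Cre library held 19.6% to 29.4% of the RPKM of its Ad-LacZ partner. G6pc2 fell by 1.96 on the log2 scale (SE 0.32, limma adjusted p = 0.0069; exact permutation p = 0.0286). Of 13 alternatives the call was lost in 1, with preparation F2 left out (limma adjusted p = 0.0642, log2 fold change -1.95), and the adjusted p over all of them ranged from 0.000383 to 0.0642.

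Under the inhibitor G6pc2 was at 1154, 1168, 834 and 861 RPKM in Ad-LacZ + JNK Inh. In Ad-Cre + JNK Inh it was at 254, 236, 113 and 152 RPKM, again with a wide gap between the groups. G6pc2 fell by 2.33 on the log2 scale in this comparison (SE 0.33, limma adjusted p = 0.00237), and the call held in each of 14 alternatives (adjusted p from 6.29e-05 to 0.0377). The inhibitor alone left G6pc2 in Ad-Cre at 85.3% to 92.3% of its RPKM, which after scaling was a log2 fold change of -0.0047 (95% interval -0.87 to 0.86). In Ad-LacZ the libraries with inhibitor held 118% to 136% of the RPKM of their partners, higher in 4 of 4 preparations. That log2 fold change, 0.37 (SE 0.26), did not pass the test (limma adjusted p = 0.999, or 0.141 once paired by preparation).

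Other genes of glucose-6-phosphate turnover are given beside it. Slc37a4, the glucose-6-phosphate transporter of the ER, had log2 fold changes of -0.20 without and -0.34 with inhibitor in Ad-Cre against Ad-LacZ, and Hk1, a hexokinase with a high affinity for glucose, 0.31 and 0.26. Neither passed the test in either comparison (limma adjusted p from 0.358 to 0.502). G6pc3, the ubiquitous paralogue of G6pc2, was at 15.1 to 20.1 RPKM in Ad-LacZ and 16.7 to 20.3 RPKM in Ad-Cre, while G6pc, the liver paralogue, did not exceed 0.0536 RPKM in any library.

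The subunits of the KATP channel lie side by side on chromosome 7, Abcc8 at 46104523 to 46180033 and Kcnj11 at 46093953 to 46100764, both on the - strand with 3758 bases between them. Abcc8 was at 165, 166, 135 and 106 RPKM with Ad-LacZ in F1, M1, M2 and F2, and at 124, 111, 68.2 and 74.8 RPKM with Ad-Cre. The groups overlapped, but within each preparation the Ad-Cre library was lower, at 50.5% to 75.4% of its partner. Its log2 fold change was -0.62 (SE 0.28). This did not pass the test without pairing (limma adjusted p = 0.165; exact permutation p = 0.143) and passed with the preparation as a block (adjusted p = 0.0082) and with quantile normalization (0.0346), the adjusted p over 13 alternatives being 0.0082 to 0.298.

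Kcnj11, the pore, was at 31.9, 33.3, 32.0 and 26.1 RPKM with Ad-LacZ and at 28.2, 28.9, 20.2 and 23.0 RPKM with Ad-Cre. It too was lower in 4 of 4 preparations while the groups overlapped. The log2 fold change of -0.30 (SE 0.19, 95% interval -0.72 to 0.12) was the smallest of the 6 genes and passed in none of 13 alternatives, the block included (limma adjusted p = 0.0637 with it).

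With the inhibitor in both arms, Abcc8 was at 126, 177, 149 and 148 RPKM in Ad-LacZ + JNK Inh and 126, 107, 66.9 and 87.6 RPKM in Ad-Cre + JNK Inh. Preparation F1 had the same level in both arms (100.1% of its partner) and the others were lower, at 44.9% to 60.5%. Its log2 fold change of -0.52 (SE 0.24) did not pass the test (limma adjusted p = 0.146). It passed with RPKM as deposited (0.0421) and with quantile normalization (0.0047), the adjusted p over 14 alternatives being 0.0047 to 0.362. Kcnj11 in the same libraries was at 20.0, 27.0, 21.7 and 22.8 RPKM against 20.6, 21.1, 13.3 and 17.0 RPKM, with a log2 fold change of -0.21 (SE 0.20, 95% interval -0.66 to 0.23).

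Of the 6 genes, only Kcnj11 differed with the inhibitor in the same direction in every preparation of both Ad-LacZ and Ad-Cre. In Ad-LacZ alone G6pc2 was as regular, higher in 4 of 4 preparations. In Ad-LacZ the libraries with inhibitor held 62.6% to 87.3% of the Kcnj11 RPKM of their partners, and in Ad-Cre 65.9% to 74.1%, lower in 4 of 4 preparations in each. After scaling, the log2 differences within preparations were -0.53 to -0.29 in Ad-LacZ and, smaller than these percentages give, -0.35 to -0.26 in Ad-Cre. The log2 fold changes were -0.40 (SE 0.14) in Ad-LacZ, with an adjusted p of 0.577 from limma and an exact permutation p of 0.0571, and -0.32 (SE 0.23) in Ad-Cre, with an adjusted p of 0.787. With the preparation as a block the second passed (limma adjusted p = 0.0414) and the first did not (0.125). The blocked call was lost again with preparation F2 left out (adjusted p = 0.18), and over 14 alternatives the adjusted p in Ad-Cre was 0.00724 to 1.00.

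Abcc8 had log2 fold changes with the inhibitor of 0.19 (95% interval -0.52 to 0.91) in Ad-Cre and 0.10 (95% interval -0.34 to 0.53) in Ad-LacZ, so the ratio between the subunits was higher with it. Abcc8 per Kcnj11, in RPKM, was 5.16, 4.97, 4.23 and 4.06 in Ad-LacZ and 6.31, 6.55, 6.86 and 6.496 in Ad-LacZ + JNK Inh. In Ad-Cre it was 4.41, 3.83, 3.38 and 3.25, and in Ad-Cre + JNK Inh 6.13, 5.08, 5.02 and 5.14. Both pairs of groups were separate, with a mean difference of the log2 ratio of 0.50 in Ad-LacZ (0.27 to 0.68 over preparations) and 0.51 in Ad-Cre (0.39 to 0.64). Ad-Cre had the lower ratio than Ad-LacZ in 4 of 4 preparations, by -0.32 on the log2 scale, with overlapping groups. The ratios are descriptions and were not tested.

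**Figure D2:**
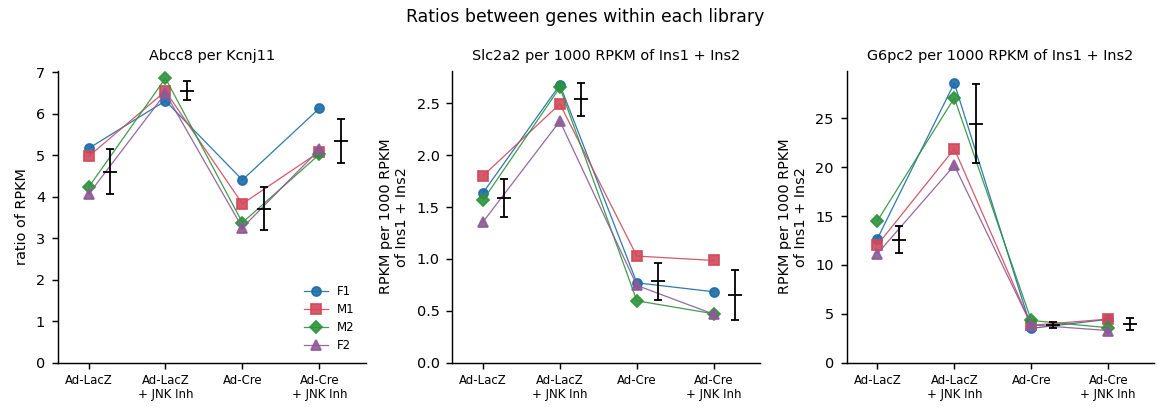
Ratio of 2 genes within each library (vertical axes, linear, from 0; ratios of RPKM, or RPKM per 1000 RPKM of Ins1 + Ins2) in the 4 groups, with 1 point per library, lines joining a preparation, and the mean ± SD (n = 4) in black. Abcc8 per Kcnj11 was 4.06 to 5.16 in Ad-LacZ and 6.31 to 6.86 with inhibitor, Slc2a2 per 1000 RPKM of insulin transcripts was 1.36 to 1.80 in Ad-LacZ and 0.595 to 1.03 in Ad-Cre, and G6pc2 per 1000 RPKM of insulin transcripts was 11.1 to 14.5 in Ad-LacZ and 3.501 to 4.31 in Ad-Cre.

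Trpm5 encodes a calcium-activated cation channel that adds to depolarization after glucose (chromosome 7, 143069153 to 143094642, - strand). It was the lowest of the 6 genes and rested on an estimated 75.9 to 983 reads per library. With Ad-LacZ it was at 5.11, 6.48, 3.84 and 6.17 RPKM, and with Ad-Cre at 3.30, 2.88, 1.16 and 2.25 RPKM. All Ad-Cre libraries lay below all Ad-LacZ libraries in RPKM, with F1 of Ad-Cre near M2 of Ad-LacZ, and after scaling these overlapped. Trpm5 fell by 0.93 on the log2 scale (SE 0.27, limma adjusted p = 0.0445; exact permutation p = 0.0571). The call was lost in 7 of 13 alternatives, with adjusted p of 0.052 at a pseudocount of 0.1, 0.0935 without the filter on low levels, 0.0578 with quantile normalization, 0.0826 with all 16 libraries in one fit, 0.0745 without F1, 0.125 without M1 and 0.204 without F2. It passed with the preparation as a block (limma adjusted p = 0.00264).

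Under the inhibitor Trpm5 was at 7.10, 6.81, 2.47 and 3.55 RPKM in Ad-LacZ + JNK Inh and at 2.76, 3.05, 1.26 and 1.54 RPKM in Ad-Cre + JNK Inh. The groups overlapped because M2 of the first was low, although Ad-Cre was lower in 4 of 4 preparations. The log2 fold change of -0.79 (SE 0.36) did not pass (limma adjusted p = 0.149) and passed with the block (0.0119), with a range of 0.00522 to 0.296 over 14 alternatives. The blocked call was lost with preparation F2 left out (limma adjusted p = 0.0812), the preparation with the shallow library. Trpm5 shares 220 exon bases, 3.44% of its 6398, with Tssc4 on the opposite strand, which was at 43.3 to 62.0 RPKM in Ad-LacZ and 48.5 to 62.6 RPKM in Ad-Cre. Whether the counting used strand was not given in the sources used here, so reads of these bases cannot be told apart. Trpm4, the closest paralogue, was at 0.46 to 0.87 RPKM in Ad-LacZ, below the filter, and was not tested.

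Pcx, pyruvate carboxylase, lies on chromosome 19 (4510472 to 4621752, + strand). It was at 43.3, 45.5, 31.7 and 27.1 RPKM with Ad-LacZ and at 34.5, 33.4, 16.4 and 20.1 RPKM with Ad-Cre. The groups overlapped and Ad-Cre was lower in 4 of 4 preparations, at 51.7% to 79.6% of its partner. Its log2 fold change of -0.52 (SE 0.32, 95% interval -1.25 to 0.21) did not pass the test (limma adjusted p = 0.295; exact permutation p = 0.257). With the block its adjusted p was 0.0133, but its fold change of 1.44 was below the 1.5 required. In the presence of inhibitor Pcx was at 29.8, 48.0, 32.1 and 33.8 RPKM with Ad-LacZ and at 34.8, 30.9, 12.1 and 18.9 RPKM with Ad-Cre, higher in Ad-Cre in F1 and lower in the other preparations, and the log2 fold change of -0.51 (SE 0.34) did not pass (limma adjusted p = 0.323). The mitochondrial pyruvate carriers Mpc1 and Mpc2, which feed the same step, had log2 fold changes of -0.082 and 0.034 in Ad-Cre against Ad-LacZ and passed in neither comparison of virus.

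Set together, the 6 genes were lower in Ad-Cre than in Ad-LacZ by the fitted value of each, with a median log2 fold change of -0.78 beside -0.0082 over all 11590 genes tested. Calls required an adjusted p from limma below 0.05 and at least a 1.5-fold change. By this rule 2 of the 6, G6pc2 and Trpm5, were called lower, where 4.43% of all genes tested were called lower. At an unadjusted p under 0.05 it was 3, with Slc2a2 added, beside 5.27% of all genes. With the preparation as a block it was 4, with Slc2a2 and Abcc8 added, beside 5.56% of all genes. The groups did not overlap in RPKM for 3 of the 6 (Slc2a2, G6pc2 and Trpm5), and 15.9% of all genes were lower without overlap. The 6 genes were chosen with earlier results of these data known, so these shares, and those below, are descriptions and no test of enrichment.

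In the comparison of virus under inhibitor the median over the 6 genes was -0.65, beside -0.033 over all 11598 genes tested. G6pc2 and Slc2a2 were called lower, 2 of 6, beside 6.69% of all genes, and the same number passed at an unadjusted p, beside 8.01%. With the block Trpm5 was added, giving 3 of 6 beside 7.32%, and it was 2 again with the block and F2 left out. Without overlap in RPKM there were 2 of 6 (Slc2a2 and G6pc2), beside 20.7% of all genes.

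In the comparisons of inhibitor the fold change required was 1.2. In Ad-Cre none of the 6 genes was called at an adjusted p, where 0% of 11503 genes were called by limma, nor at an unadjusted p, where 7.99% were. With the block 1 of 6 was called (Kcnj11), beside 6.55% of all genes. In Ad-LacZ 0 of 6 were called at an adjusted p, beside 0.197% of 11657 genes, 1 of 6 (Kcnj11) at an unadjusted p, beside 4.77%, and 0 of 6 with the block, beside 0.395%. The median log2 fold change over the 6 genes was -0.0072 in Ad-Cre and 0.041 in Ad-LacZ, beside -0.014 and -0.0078 over all genes.

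Whether the effect of Ad-Cre differed with the inhibitor was tested as an interaction over all 16 libraries and 12274 genes. None of the 6 genes passed at an adjusted p, where 0% of all genes did, with or without the block, and none at an unadjusted p, where 3.33% did. The interaction of G6pc2 was -0.36 (95% interval -1.42 to 0.70) and negative in 4 of 4 preparations, with a limma adjusted p of 1.00, or 0.404 with the block. That of Slc2a2 was -0.41 (95% interval -1.84 to 1.03), also negative in 4 of 4 preparations. The other genes had interactions between 0.027 and 0.14.

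**Figure D3:**
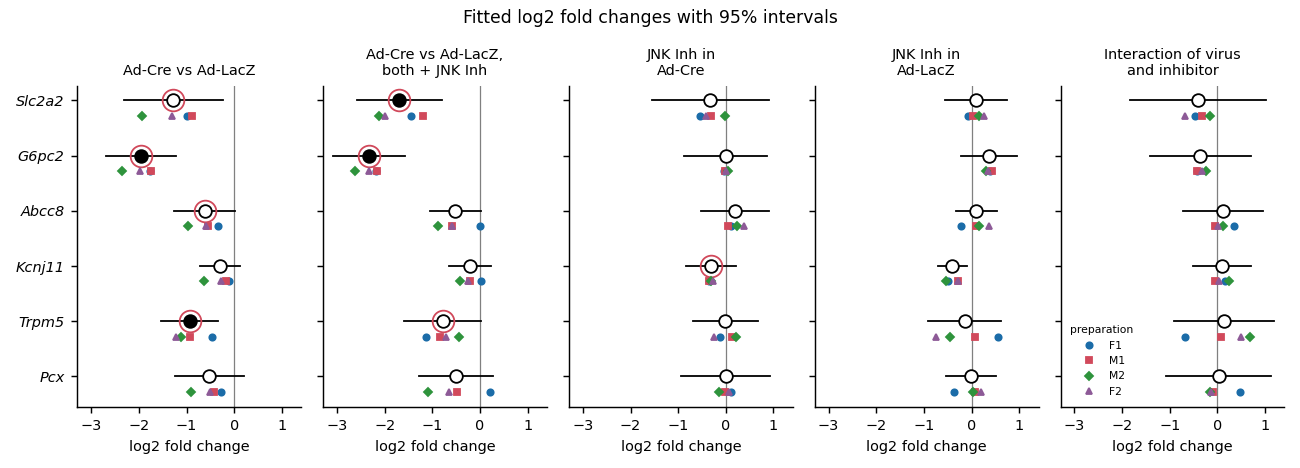
Fitted log2 fold change on the log2(RPKM + 1) scale (horizontal axis) of the 6 genes in the 4 comparisons and the interaction, as large circles with 95% intervals, and the difference within each preparation as small symbols below. Filled circles were called without pairing and red rings mark calls made with the block on preparation; G6pc2 lies at -1.96 and -2.33 in the panels of virus, at -0.0047 for the inhibitor in Ad-Cre and at 0.37 for it in Ad-LacZ.

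Because the insulin genes are the most abundant transcripts of β cells, the 6 genes were also set against the sum of Ins1 and Ins2 in the same library. The sum was 46792 to 77162 RPKM in Ad-LacZ, 30817 to 79367 in Ad-Cre, 30795 to 53362 in Ad-LacZ + JNK Inh and 31753 to 57303 in Ad-Cre + JNK Inh. Neither Ins1 (log2 fold change -0.38, SE 0.42) nor Ins2 (-0.18, SE 0.46) passed the test in Ad-Cre against Ad-LacZ. G6pc2 per 1000 RPKM of the sum was 12.7, 12.0, 14.5 and 11.1 in Ad-LacZ and 3.501, 3.81, 4.31 and 3.86 in Ad-Cre. The preparations that differed in G6pc2 level lay close together in this ratio, and the groups were far apart.

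For Slc2a2 the ratio was 1.36 to 1.80 in Ad-LacZ and 0.595 to 1.03 in Ad-Cre, and for Trpm5 0.0662 to 0.109 and 0.0378 to 0.0511, both without overlap. The ratios of Abcc8, Pcx and Kcnj11 overlapped between these groups. That of Kcnj11 was lower in 3 and higher in 1 of the preparations, with a mean log2 difference of -0.037. With inhibitor in both arms, each of the 6 ratios was lower in Ad-Cre in 4 of 4 preparations without overlap, by -0.51 for Kcnj11 to -2.63 for G6pc2 on the log2 scale. The denominator differed here too: Ins2 was higher in Ad-Cre in 4 of 4 preparations, at 115% to 157% of its partner (log2 fold change 0.56, limma adjusted p = 0.268, or 0.0274 with the block), while Ins1 was lower in 3 and higher in 1. In preparation F1 the RPKM of Abcc8, Kcnj11 and Pcx was itself 100.1%, 103% and 117% of its partner. In the Ad-LacZ cultures the inhibitor libraries had the higher ratio of G6pc2, 20.2 to 28.6 against 11.1 to 14.5, and there the insulin sum was lower in 4 of 4 preparations. The ratios of Slc2a2, Abcc8 and Pcx were also higher there without overlap, by 0.68, 0.68 and 0.57 on the log2 scale. Those of Kcnj11 (0.18) and Trpm5 (0.43) had higher means with overlapping groups, and Trpm5 was lower in 1 preparation. In RPKM, with inhibitor in both arms, only Slc2a2 and G6pc2 did not overlap, where 20.7% of all genes were lower without overlap. The share of all genes without overlap in a ratio to insulin transcripts was not computed, and these ratios were not tested.

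Around the 6 genes stand the other genes of the path, in lists that leave them out. Of all 11590 genes tested in Ad-Cre against Ad-LacZ, 470 were called higher and 513 lower, or 619 and 644 with the block. Of 20 genes of glucose transport and hexose phosphorylation, 13 were tested in Ad-Cre against Ad-LacZ, with a median log2 fold change of 0.025, and 1 rose and 0 fell. The one that rose was Slc2a6 (2.28, SE 0.23, limma adjusted p = 0.0013), a transporter of the lysosome membrane, from 0.688 to 0.934 RPKM in Ad-LacZ to 4.90 to 13.3 RPKM in Ad-Cre. Its Ad-LacZ libraries were all below the filter of 1 RPKM, so it was tested only because of its high Ad-Cre libraries. Its call is not independent of that selection. Slc2a1, the ubiquitous transporter GLUT1, rose with the block (0.84, adjusted p = 0.0135) and not without it (0.071). Of 18 KATP paralogues, inward rectifiers and K2P channels, 6 were tested, and 0 were called without the block and 1 with it, the background potassium channel Kcnk3 (0.72, limma adjusted p = 0.00323).

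Of 16 TRP channels besides Trpm5, 4 were tested and 1 fell, Trpc1 (-0.64, SE 0.09, limma adjusted p = 0.00311), while Trpm3 fell with the block (-0.62, adjusted p = 0.00423). The TRP list had a median of -0.57 over these 4 genes. Of 19 genes of pyruvate entry into mitochondria, all tested, Pdhb, a subunit of pyruvate dehydrogenase, rose (0.62, limma adjusted p = 0.0178) and the lactate dehydrogenase subunit Ldhb fell (-0.85, adjusted p = 0.00224), while Ldha rose with the block (0.63, adjusted p = 0.0359) and not without it (0.247). Their median was 0.067. Of 24 genes of anaplerosis, shuttles and NADPH supply, 22 were tested with a median of 0.026, and 1 rose, the cytosolic aspartate aminotransferase Got1 (0.60, limma adjusted p = 0.0178). The glycerol-3-phosphate dehydrogenase of mitochondria, Gpd2, fell with the block (-0.59, adjusted p = 0.0112) and not without it (0.166).

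Under the inhibitor the lists gave more calls, as did all genes, of which 913 of 11598 tested were called higher and 776 lower. Slc2a6 rose here too (2.74, limma adjusted p = 0.000625), in cultures of the same preparations, so its call is not an independent repeat. Among potassium channels Kcnk3 (1.08) and Kcnk1 (0.88) rose and Kcnk9 fell (-1.31), 3 of 7 tested. Pyruvate entry had 2 that rose (Pdhb 1.08 and Pdha1 0.61) and 2 that fell (Ldhb -1.04 and Hlcs -0.66, the enzyme that attaches biotin to carboxylases such as pyruvate carboxylase). Mdh2 (0.996), Got1 (0.88) and Got2 (0.61) of the anaplerosis list rose, 3 of 22 tested, and Trpc1 fell (-0.60). When inhibitor was compared with vehicle in Ad-Cre and in Ad-LacZ, 0 genes of these lists were called at an adjusted p by limma without the block. With it, 7 genes were called in Ad-Cre, among them Kcnk9 (0.87) and Kcnk1 (0.62), and 1 in Ad-LacZ, Kcnk9 (1.77). Of all genes tested, 6.55% in Ad-Cre and 0.395% in Ad-LacZ were called with the block.

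**Figure D4:**
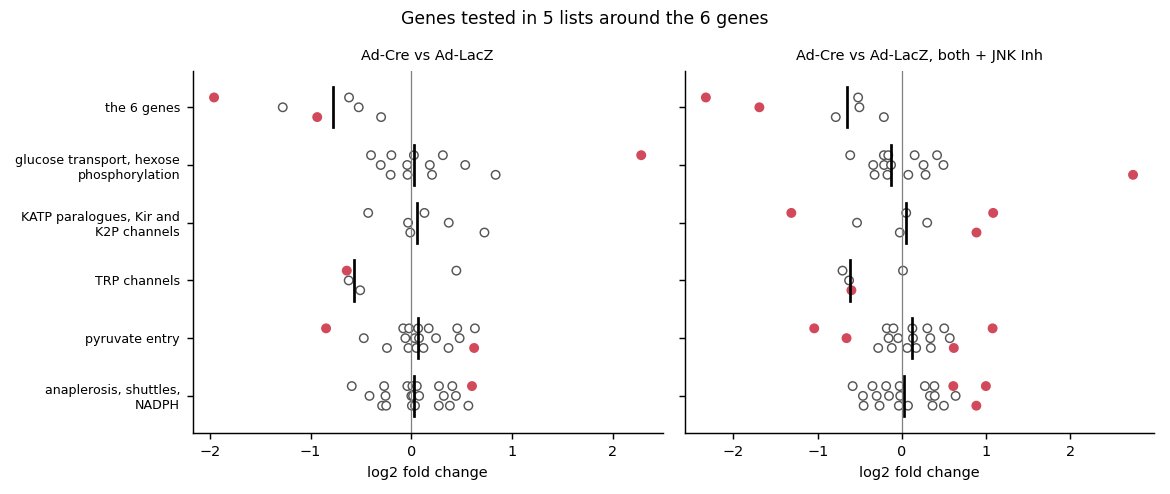
Fitted log2 fold change on the log2(RPKM + 1) scale (horizontal axis) of each gene tested among the 6 genes and in 5 lists of neighbouring genes, for Ad-Cre against Ad-LacZ without and with inhibitor. Red points were called at an adjusted p without the block, and a black line marks each median, which is -0.78 for the 6 genes and between -0.57 and 0.067 for the lists in the left panel.

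The size of the difference varied with the preparation. In Ad-Cre against Ad-LacZ, preparation M2 had the lowest percentage of its control for each of the 6 genes, from 19.6% for G6pc2 to 63.2% for Kcnj11. In the same libraries the summed level of 8 stellate cell and fibroblast markers was 164, 274, 556 and 350 RPKM with Ad-LacZ and 177, 279, 1836 and 702 RPKM with Ad-Cre, highest in M2. All 5 of these markers that were tested had higher fitted values in Ad-Cre, with a median of 0.96, and 0 were called. Under the inhibitor the order was turned, since the stellate sum was 165 to 1241 RPKM in Ad-LacZ + JNK Inh and 125 to 774 RPKM in Ad-Cre + JNK Inh, with 7 of 7 tested lower, while Slc2a2 and G6pc2 were again lower in Ad-Cre. In preparation F1 the stellate sums were 164 and 177 RPKM, and there G6pc2 in Ad-Cre held 28.4% of its control, Slc2a2 48.3% and Kcnj11 88.4%. The markers' part in the difference of M2 was not tested.

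Other cell types were read the same way. The summed level of 8 leukocyte markers was 70.1 to 78.6 RPKM in Ad-LacZ and 69.8 to 206 RPKM in Ad-Cre. By single genes, 7 of 7 tested were higher and 2 were called, beside 470 of all 11590 genes called higher. The sum of 7 α cell markers was 12937 to 19468 RPKM in Ad-LacZ and 12008 to 21683 RPKM in Ad-Cre. With inhibitor in both arms the other endocrine markers had higher fitted values in Ad-Cre, with 7 of 7 α cell markers (median 0.53, 0 called), 4 of 4 δ cell markers (median 0.74, 0 called), 2 of 2 PP cell markers (median 0.90, 1 called) and 5 of 5 pan-endocrine markers (median 0.29, 0 called), in the same libraries in which Slc2a2 and G6pc2 fell. Over all 11598 genes tested there, 913 were called higher. In M2 the α cell sum was 13279 RPKM in Ad-LacZ + JNK Inh and 27363 RPKM in Ad-Cre + JNK Inh, and the δ cell sum 3033 and 6834 RPKM. Their part in the values of the 6 genes was not tested. The 11 β cell markers listed summed to 51718 to 84412 RPKM in Ad-LacZ and 33566 to 84546 RPKM in Ad-Cre, a sum made up mostly of insulin transcripts. By single genes, 11 of 11 β cell markers, none of them among the 6 genes, were lower in Ad-Cre, with a median log2 fold change of -0.81, close to that of the 6 genes. Of these markers 1 was called lower without the block and 7 with it, beside 4.43% and 5.56% of all genes tested. Under the inhibitor 10 of 11 were lower, with a median of -0.82. Whether the 6 genes moved apart from the β cell markers as a group was not tested.

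**Figure D5:**
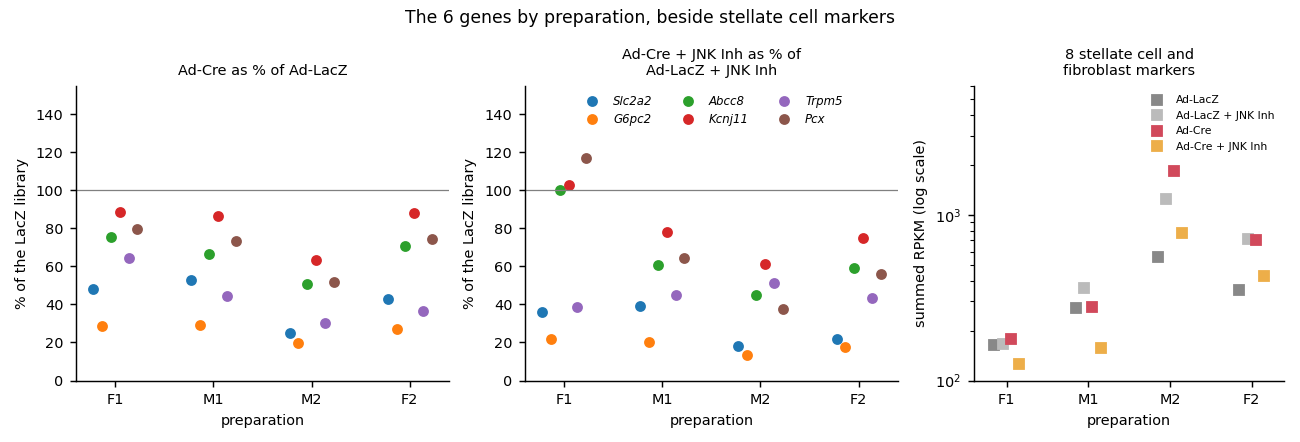
Level of the 6 genes in the Ad-Cre library as a percentage of the Ad-LacZ library of the same preparation (left and middle; the line marks 100%), and the summed RPKM of 8 stellate cell and fibroblast markers in the same libraries (right, log axis). In the left panel M2 has the lowest value of each gene, at 19.6% to 63.2%, and it has the highest stellate sum, 1836 RPKM with Ad-Cre.

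The levels of the 6 genes over the 16 libraries ran together to different degrees. Pearson's r of log2 values was 0.96 between Abcc8 and Pcx, 0.94 between Slc2a2 and G6pc2, 0.72 between Abcc8 and its channel partner Kcnj11, and lowest, 0.59, between G6pc2 and Kcnj11. With each preparation centred on its own mean, Slc2a2 and G6pc2 were at 0.97 and Abcc8 and Kcnj11 at 0.47. These values describe 16 libraries that share 4 preparations and 4 treatments, so the points are not independent. Among all 12274 genes, the most alike to G6pc2 by r were Tmem215 (0.994), Nfatc2 (0.988) and Sytl4 (0.987), and to Slc2a2 Mboat2 (0.985), Gjd2 (0.985) and Tmem229b (0.980). For Abcc8 they were Syt13 (0.971), Rps6ka2 (0.961) and Slc6a6 (0.960), and for Kcnj11 H1f10 (0.969), Rtl6 (0.967) and Fam102a (0.967). Trpm5 was most like Kcnip1 (0.971), Mir670hg (0.970) and Gbf1 (0.967), and Pcx most like Sv2a (0.981), Ube2o (0.979) and Fam222a (0.972). Among these 3 nearest genes of each, none was shared between 2 of the 6, and none was itself 1 of the 6. Many names differed with each preparation centred on its own mean. There the nearest of Slc2a2 was Sytl4 (0.990), that of G6pc2 was again Tmem215 (0.994), and Ins1 (0.957) was among the 3 nearest of Kcnj11.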

How the data were processed

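RNA-seq libraries of dispersed islet cells were grouped by their labels into Ad-LacZ, Ad-Cre, Ad-LacZ + JNK Inh and Ad-Cre + JNK Inh, with 4 replicates each. The authors made poly(A) libraries, mapped the read pairs to the mouse genome, counted them by gene, and deposited RPKM. GRCm38 is named in the submitters' processing notes; the annotation, the gene lengths, the strand setting and the step to RPKM were not given in the sources used here. A further 3 columns that no label names were not used.

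The count test of the study could not be run on RPKM. Values were scaled by unweighted TMM factors computed on RPKM (trim 30% of ratios and 5% of levels), and log2(RPKM + 1) of genes above 1 RPKM in at least 4 libraries was fitted with limma 3.58.1 in R 4.3.3 (lmFit, eBayes with trend), with Benjamini-Hochberg adjustment over all genes tested. A pseudocount of 1 understates fold changes of low genes such as Trpm5. Each comparison used its 8 libraries, without a block; the interaction used all 16. Calls needed an adjusted p under 0.05 and a fold change above 1.5 (virus) or 1.2 (inhibitor). Single genes had an exact two-sided permutation test, with 0.0286 as its smallest p. Depth was read from steps of low RPKM times gene lengths of GENCODE M21 (25093 identifiers matched). The fit of Ad-Cre against Ad-LacZ, and no other, was also run on simulated data, with an outcome that is not reported here. Tables and plots used Python 3.11.15, pandas 2.3.3, numpy 2.4.6 and matplotlib 3.10.9.

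Replicate labels name the preparation, and by the study's methods cultures run in parallel came from one biological replicate, so the labels pair the libraries. Residual correlations of the same preparation were 0.486 to 0.721 (Ad-Cre against Ad-LacZ), 0.158 to 0.663 (with inhibitor), 0.645 to 0.821 (inhibitor in Ad-Cre) and 0.131 to 0.826 (inhibitor in Ad-LacZ), with means of other pairs from -0.23 to -0.13. Blocked values are given where they change a call. Titles carry 2 animal numbers for each preparation, while the paper speaks of 4 mice in all. Whether islets were pooled was not given in the sources used here. Without the block, p-values set the group difference against the spread between preparations, which includes differences that both groups share. With the block, they set it against the spread left once the libraries are paired by preparation.

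The 6 genes, the lists, the markers and the motifs were chosen with earlier results of these data known. The genes named are the 6, Hspa5, Ins1 and Ins2, the partners of the path, at most 5 called genes per list and comparison, and the 3 genes most alike to each of the 6; G6pc3, G6pc and Tssc4 were named after their values were seen. Alternatives were a pseudocount of 0.1, no filter, quantile normalization, unscaled RPKM, the block, a joint fit of all 16 libraries, eBayes without trend, each preparation left out and the shallow library left out. Fits with the block and without M2 or F2 were added after seeing the data. A gene of the partners is not reported here.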

Additional observations from a re-analysis of the deposited data

How the results depend on the processing

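The direction of each of the 6 genes in Ad-Cre against Ad-LacZ, with or without inhibitor, was the same under every alternative run, but the number of the 6 called changed. In Ad-Cre against Ad-LacZ it was 2, and 1 with a pseudocount of 0.1, with no filter or with all 16 libraries in one fit, 3 with quantile normalization, and between 0 (without F2) and 2 (without M2) with 1 preparation left out. With the preparation as a replicate block it was 4, also with F2 left out, and 3 with M2 left out. With inhibitor in both arms it was 2, and 3 with the replicate block (2 with the block and F2 left out), with quantile normalization or with RPKM as deposited, between 1 (without F1 or F2) and 2 with 1 preparation left out, and 1 with the Ad-Cre + JNK Inh library of F2 left out. Between inhibitor and vehicle in Ad-Cre it was 0, and 1 with the replicate block, 2 (Slc2a2 and Kcnj11) with the block and M2 left out, and 0 with the block and F2 left out. In Ad-LacZ and for the interaction the block added no call among the 6. The cause of these changes was not tested. Fits with a preparation or a library left out also had fewer libraries, and the part of that was not tested either. Genes called over the whole table moved with the libraries as well. In Ad-Cre against Ad-LacZ 983 were called, and from 196 (without F2) to 755 (without M2) with a preparation left out, 518 without F1 and 480 without M1. With inhibitor 1689 were called, and from 323 (without F2) to 2369 (without M2), 1076 without F1, 451 without M1, 2627 with the block and M2 left out, and 273 with the block and F2 left out. Between inhibitor and vehicle in Ad-Cre 0 were called, and 753 with the block, 2392 with the block and M2 left out, 59 with all 16 libraries, 3 with a pseudocount of 0.1 and 1 with quantile normalization. In Ad-LacZ 23 were called, and 46 with the block, 0 with the block and M2 left out, 9 with all 16 libraries, 7 with RPKM as deposited, 4 with no filter and 1 to 3 without a preparation. The interaction had 0, and 1 with quantile normalization.

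Some directions turned, mostly of values near 0. RPKM as deposited moved the median of all genes to -0.14 with inhibitor in both arms, -0.14 between inhibitor and vehicle in Ad-Cre and -0.12 for the interaction. In the comparison of inhibitor in Ad-Cre, the log2 fold change of Pcx turned to -0.0011 (pseudocount 0.1), -0.15 (as deposited), -0.075 (quantile) and -0.026 (block, F2 left out), and ran from -0.044 to 0.051 with a preparation left out. That of Trpm5 turned to 0.045 (quantile), 0.068 (block, F2 left out) and 0.10 (the single F2 library left out), and ran from -0.081 to 0.068 with a preparation left out. That of G6pc2 turned to 0.097 (the single F2 library left out) and ran from -0.020 to 0.00087. With quantile normalization Abcc8 turned to -0.039, Hspa5 to -0.22 and Ins2 to -0.16, and Ins2 to -0.13 in the comparison of virus under inhibitor. In the comparison of inhibitor in Ad-LacZ, Trpm5 turned to 0.051 (block, F2 left out) and ran from -0.38 to 0.051 with a preparation left out, and Pcx from -0.089 to 0.099. The interaction turned for Abcc8 (-0.039 as deposited, -0.053 quantile), Kcnj11 (-0.046 as deposited), Ins1 (-0.17 quantile), Ins2 (-0.12 quantile), Pcx (-0.12 as deposited, -0.023 quantile, and -0.11 to 0.080 with a preparation left out) and Trpm5 (-0.040 with the block and M2 left out, and -0.040 to 0.43 with a preparation left out). Depth limited Trpm5 most, with an estimated 75.9 reads in its lowest library.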

Other observations

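Ratios between the 6 genes and neighbours of the path outside the comparisons are given as values, chosen after the data were seen. Slc2a2 per Slc2a1, the β cell glucose transporter over the ubiquitous one, was 52.9, 44.0, 16.6 and 40.1 in Ad-LacZ (F1, M1, M2 and F2) and 16.3, 19.6, 1.57 and 4.65 in Ad-Cre. With inhibitor it was 76.4, 33.5, 10.8 and 16.3 in Ad-LacZ and 6.46, 11.4, 2.43 and 3.496 in Ad-Cre. The ratio was lower in Ad-Cre in each preparation, and it differed between preparations of 1 group by more than 10-fold in Ad-Cre.

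G6pc2 per Slc37a4, the phosphatase subunit over the transporter of its substrate, was 29.8 to 41.4 in Ad-LacZ and 8.37 to 14.2 in Ad-Cre. G6pc2 per G6pc3, its ubiquitous paralogue, was 38.1 to 49.8 and 7.93 to 13.7. Both ratios were 40.1 or above in each Ad-LacZ + JNK Inh library and 17.6 or below in each Ad-Cre + JNK Inh library. The vascular KATP subunits Abcc9 and Kcnj8 were below 0.23 RPKM in each Ad-LacZ library, and in Ad-Cre reached 8.47 and 5.08 RPKM in M2. In Ad-LacZ + JNK Inh they reached 3.94 and 2.92 RPKM, also in M2, and in Ad-Cre + JNK Inh no library exceeded 0.603 and 0.102 RPKM. The stellate marker sums in those M2 libraries were 1836, 1241 and 774 RPKM in Ad-Cre, Ad-LacZ + JNK Inh and Ad-Cre + JNK Inh, and the markers' part was not tested.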
